A study of Homo sapiens with 2 samples.

Results

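Kinesins are motor proteins that use ATP to move along microtubules or to take them apart. Dividing cells use one set of kinesins to build the spindle, align chromosomes and finish cytokinesis, and these genes are known to be switched on in G2 and mitosis. Another set, with kinesin-1 and its light chains as the best known, carries organelles and vesicles, and is known in neurons for transport along axons and dendrites. The family was taken by name from the deposited gene table: every protein-coding gene named KIF with a number and at most 1 further letter and digit, together with KIFC1, KIFC2, KIFC3 and the light chain genes KLC1, KLC2, KLC3 and KLC4. This gave 46 genes of 58735 genes in the table and of 19951 protein-coding ones.

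The exposed library came from cells kept for 24 h with a mixture of the flame retardant TDCPP and titanium dioxide nanoparticles (TDCPP and TiO2 NPs in the labels). The control library (Ctrl) came from cells that the labels give no agent for. Both were cultures of the cell line labelled SH-SY5Y, a human neuroblastoma line, in DMEM with fetal bovine serum and antibiotics. No dose and no library of either agent alone is described in the labels used here, and there was 1 library per group, so no difference has a replicate check and no p-value is given.

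Levels are in FPKM, fragments per kilobase of gene length and per unit of library size, as the authors deposited them. The libraries held 15315572 reads (exposed) and 16471438 reads (control) on genes. A gene was counted as measured at a mean FPKM of 1 or more, which 36 of the 46 kinesins and 11409 protein-coding genes reached. The log2 ratio is that of exposed over control FPKM after adding 1 to each, which makes differences of low genes look smaller. Ratios without that addition carry a 95% exact conditional interval of the recovered reads, which covers counting error only and compares these libraries, not the conditions.

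The labelled cell type was checked against its markers. Of 13 neuroblastoma markers, GATA3, HAND2 and ISL1 were measured, and TH, PHOX2A, STMN2 and ELAVL4 had no read in either library. The 13 summed to 7.06 FPKM in the exposed and 9.66 FPKM in the control library. Of 5 epithelial markers, KRT8, KRT18 and KRT19 were measured and the list summed to 411 FPKM (exposed) and 619 FPKM (control), while EPCAM and CDH1 stayed under 1 FPKM. The mesenchymal list, of which COL1A1 alone was measured, summed to 3.94 FPKM (exposed) and 6.77 FPKM (control), and the immune and endothelial list to 0.452 FPKM (exposed) and 0.375 FPKM (control), with PTPRC and CD68 at 0. The keratin sum was lower in the exposed library, as were the mitotic kinesins below, and its part in those results was not tested.

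Mitotic kinesins were lower in the exposed library and transport kinesins differed little. The 12 measured kinesins of the spindle, chromosomes and cytokinesis had a median log2 ratio of -0.45, against -0.05 for all 11409 measured genes. The 20 measured transport kinesins and light chains had a median of -0.02, whose sign turned under the 3 other scalings tried, to values of 0.03 to 0.09. It was -0.17 among those with a mean FPKM of at least 5. By the log2 ratio, 8 of the 12 mitotic kinesins were at least 20% lower, where 13.5% of all measured genes were lower by that much. None of the 20 transport genes was 20% lower, and 1 of them, KIF5A, was at least 25% higher, against 8.98% of all genes. At 1.5-fold only KIF20A and KIF20B were lower among the 36, against 2.16% of all genes, and none was higher, against 2.53%. Fewer dividing cells and less of these RNAs per dividing cell cannot be told apart in bulk RNA.

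Summed over all 46 genes, the family stood at 448 FPKM in the exposed and 546 FPKM in the control library, a ratio of 0.820. The sum over all measured protein-coding genes was lower in the exposed library as well, with a ratio of 0.886. The 14 mitotic genes made up 45.4% of that sum in the exposed library and 50.9% in the control library. The 21 transport and light chain genes made up 42.7% (exposed) and 39.1% (control). The mitotic share was thus smaller and the transport share larger in the exposed library. The transport sum itself was lower there, at 191 FPKM (exposed) and 214 FPKM (control). Its ratio was 0.896, against 0.732 for the mitotic sum. KIF5B was the most abundant kinesin in both libraries and KIF11 the second. KIF20A ranked 8 in the exposed library and 3 in the control library.

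**Figure D1:**
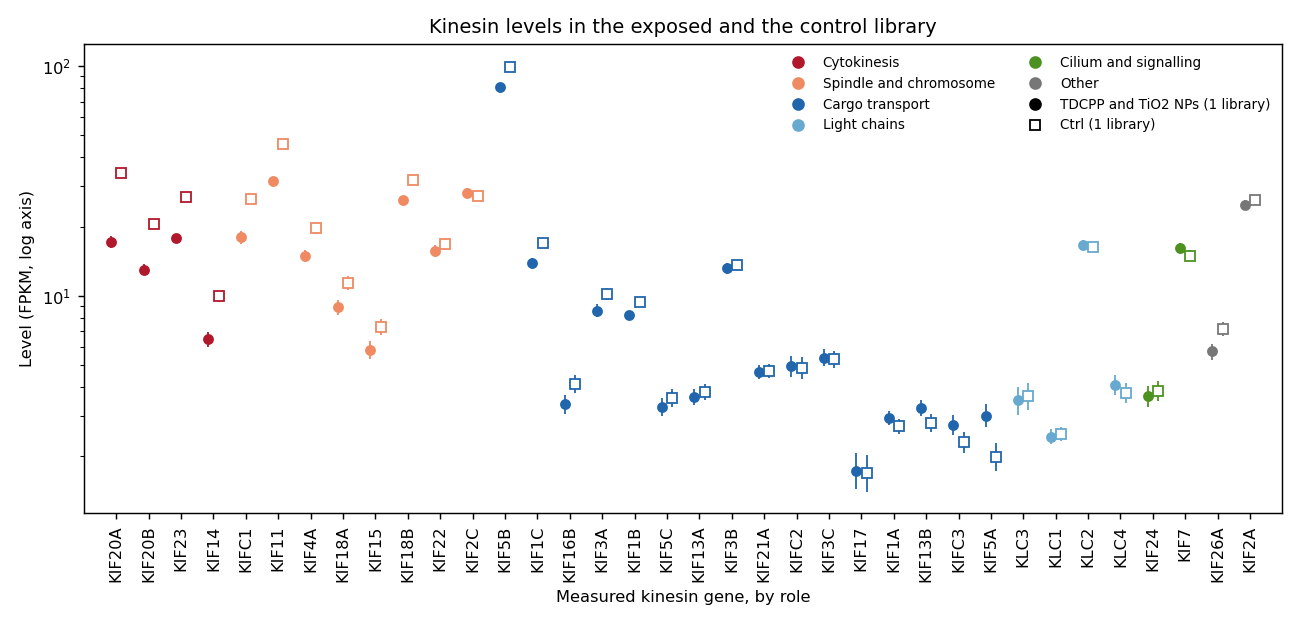
Level of each measured kinesin (FPKM, log axis) in the exposed (filled circles) and the control library (open squares), coloured by role, with 95% Poisson intervals of the reads. KIF5B stands highest, at 81.1 FPKM (exposed) and 98.6 FPKM (control), and the 4 cytokinesis genes show wide gaps between the libraries, with KIF20A at 17.1 FPKM (exposed) and 34.3 FPKM (control).

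The kinesins of cytokinesis had the lowest log2 ratios of the 36 measured kinesins with the settings as reported. With a pseudocount of 5, KIF14 at -0.38 stood above KIFC1 at -0.45 and KIF11 at -0.47. KIF20A encodes MKLP2, which carries the chromosomal passenger complex to the central spindle in anaphase (ENSG00000112984, chromosome 5, 138178719 to 138187715, plus strand). It stood at 17.1 FPKM in the exposed and 34.3 FPKM in the control library, from 1067 and 2170 reads. Its ratio of 0.499 (0.463 to 0.537) placed its log2 ratio of -0.96 at rank 22 from the lowest among the 11409 measured genes. KIF20A shares 132 exon bases with BRD8 and 68 with CDC23 on the opposite strand, 3.34% and 1.72% of its length, and the table carries no statement on strand. BRD8 and CDC23 had log2 ratios of -0.09 and -0.10, so neither showed a difference of the size seen for KIF20A.

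KIF20B, a relative of KIF20A that acts late in cytokinesis (chromosome 10, 89701610 to 89774939), had 13.01 FPKM in the exposed and 20.46 FPKM in the control library, a ratio of 0.636 (0.595 to 0.680). KIF23 encodes MKLP1, which forms the centralspindlin complex with RACGAP1 (chromosome 15, 69414246 to 69448427), and stood at 17.8 FPKM (exposed) and 26.9 FPKM (control), a ratio of 0.660 (0.622 to 0.700). KIF14, which PRC1 brings to the midbody (chromosome 1, 200551497 to 200620734), had 6.47 FPKM (exposed) and 9.95 FPKM (control), a ratio of 0.650 (0.592 to 0.713). All 4 were lower in the exposed library by more than counting error. The interval of KIF20A did not overlap those of the other three, whose intervals overlapped one another. The sum of the 3 kinesin-6 genes KIF20A, KIF20B and KIF23 was 0.586 of that in the control library. It was the lowest ratio of sums among the 7 kinesin subfamilies that were summed.

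The calls at 1.5-fold lay close to the threshold for all of these but KIF20A. The log2 ratios were -0.61 for KIF20B, just past it, and -0.57 for KIF23 and -0.55 for KIF14, just short of it. KIF20B was no longer past 1.5-fold with a pseudocount of 5 or under any of 3 other scalings, whereas KIF23 and KIF14 passed it with a pseudocount of 0.1.

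Of the 8 measured kinesins assigned to the spindle and chromosomes, 6 were lower as well. KIF11 encodes Eg5, the motor that pushes spindle poles apart (ENSG00000138160, chromosome 10, 92593286 to 92655395). It stood at 31.6 FPKM in the exposed and 45.6 FPKM in the control library, a ratio of 0.692 (0.657 to 0.729). KIFC1, a minus-end-directed motor that clusters centrosomes (chromosome 6, 33391536 to 33409924), had 17.95 FPKM (exposed) and 26.3 FPKM (control), a ratio of 0.682 (0.627 to 0.741). The gaps of KIF11 and KIFC1 were of like size, and their intervals overlapped.

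KIF4A, a chromokinesin that works with PRC1 on the central spindle, stood at 14.9 FPKM in the exposed and 19.7 FPKM in the control library, a ratio of 0.757 (0.698 to 0.820). Its intronless near copy KIF4B had 2 reads (exposed) and 6 reads (control), so few reads were assigned to the copy. KIF18A, which dampens the movements of chromosomes at the metaphase plate, had 8.90 FPKM (exposed) and 11.4 FPKM (control), a ratio of 0.781 (0.704 to 0.866). KIF15, which can keep spindles bipolar when Eg5 is inhibited, had 5.81 FPKM (exposed) and 7.31 FPKM (control), a ratio of 0.794 (0.704 to 0.896). KIF18B, which shortens astral microtubules together with KIF2C, had 26.1 FPKM (exposed) and 31.9 FPKM (control), a ratio of 0.817 (0.769 to 0.868). These 4 were all lower by more than counting error and by less than 1.5-fold.

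KIF2C and KIF22 did not share that difference. KIF2C encodes MCAK, which takes microtubules apart at kinetochores (chromosome 1, 44739818 to 44767767), and stood at 28.1 FPKM in the exposed and 27.2 FPKM in the control library, a ratio of 1.03 (0.962 to 1.11). KIF22 encodes Kid, a chromokinesin that pushes chromosome arms away from the poles, and had 15.6 FPKM (exposed) and 16.8 FPKM (control), a ratio of 0.933 (0.858 to 1.01). Both intervals included 1, and the interval of KIF2C overlapped that of none of the 10 mitotic kinesins other than KIF22. The negative log2 ratio of KIF22, -0.09, turned to 0.02 with both libraries scaled to equal FPKM sums. That scaling raised the log2 ratio of KIF2C from 0.04 to 0.16, so whether its interval includes 1 depends on the scaling. KIF2A, a depolymerase like KIF2C that acts at spindle poles and in neurons, was not counted in the mitotic group. That grouping, like the other lists, was set with earlier results of these data known. KIF2A had 24.9 FPKM (exposed) and 26.0 FPKM (control), a ratio of 0.957 (0.898 to 1.02), so that its interval included 1 as well. It shares 8.97% of its exon length with IPO11 on the same strand, which had 1015 reads (exposed) and 1115 reads (control). The summed level of KIF2A and KIF2C was 53.0 FPKM in the exposed and 53.3 FPKM in the control library, and KIF2B, the remaining kinesin-13 gene, had no read in either.

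**Figure D2:**
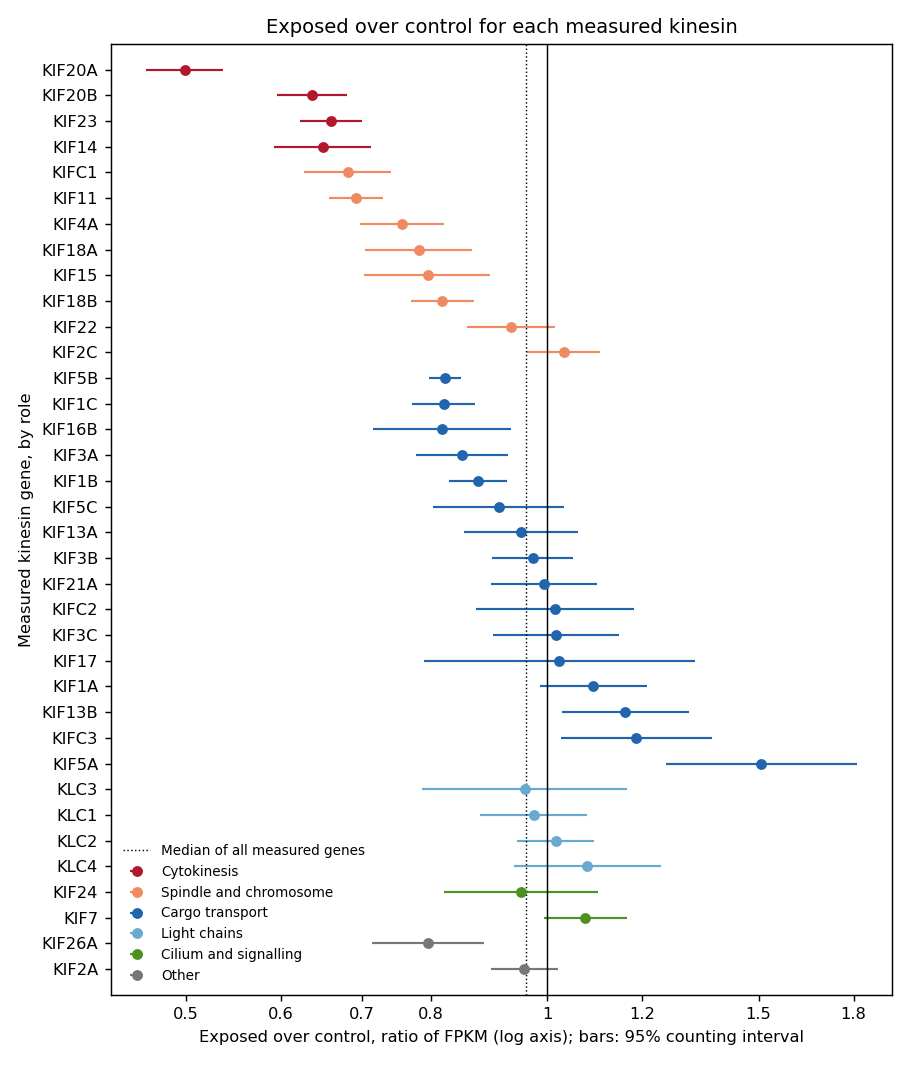
Exposed over control ratio of FPKM for each of the 36 measured kinesins (points, log axis) with its 95% counting interval (bars), grouped by role. The solid line marks a ratio of 1 and the dotted line the median of all measured genes, 0.960. The cytokinesis genes lie at 0.499 to 0.660, KIF2C lies at 1.03, and KIF5A at 1.51 is the highest.

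Counting intervals excluded 1 on the lower side for 10 of the 12 measured mitotic kinesins, against 36% of all measured genes. Transport kinesins and light chains had such an interval in 5 of 20 cases, and 3 of 20 had an interval above 1, against 21.5% of all genes. Intervals were computed at the deposited scaling only, and equal FPKM sums raised the median log2 ratio of all genes by 0.11. The intervals of KIF16B, KIF3A and KIF1B ended at 0.933, 0.927 and 0.926. Those of KIF1A, KLC2 and KLC4 began at 0.985, 0.944 and 0.938. Calls this close to 1, on either side, depend on the scaling. Without KIF20A the median log2 ratio of the mitotic group was -0.38. Under every scaling, pseudocount and filter tried, 11 of the 12 measured mitotic kinesins, or 12 of all 14 without a filter, lay below the median of all genes. A scaling moves the genes and that median together, so it could hardly change this count.

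The promoters of the mitotic kinesins were compared because genes of G2 and mitosis are known to share a promoter layout. In it a cell cycle homology region (CHR), which the DREAM and MMB complexes bind, lies close to the start of transcription, and CCAAT boxes, which NF-Y binds, lie before it. DREAM is known to hold such genes silent in resting cells and downstream of CDKN1A. RefSeq windows of 300 bases, 250 before and 50 after each start, on GRCh38.p14, were found for 36 of the 46 kinesins, 45 windows in all. All 14 mitotic kinesins had a window, so the 10 kinesins without one were all outside that group. KIF5A, KIF13B and KIFC3 were among the 10, so shares of other kinesin windows leave them out. Both strands were searched for TTTGAA (CHR core), TTTAAA (a variant core, its own reverse complement) and CCAAT, and no matches in kinesin windows overlapped. The stretches below show the 120 bases before the start of 5 lower mitotic kinesins and of KIF2C, 5′ to 3′ on the strand of the gene. These genes were picked for display and do not stand for all mitotic kinesins. TTTGAA of KIF14, KIF18B, KIFC1 and KIF20B began after the start, at positions 2, 3, 5 and 25, and would not show in such a stretch. KIF15 and KIF22 are not shown either. Matches are in capitals (ATTGG is CCAAT and TTCAAA is TTTGAA on the other strand).
KIF20A, chr5:138178992-138179111, plus strand: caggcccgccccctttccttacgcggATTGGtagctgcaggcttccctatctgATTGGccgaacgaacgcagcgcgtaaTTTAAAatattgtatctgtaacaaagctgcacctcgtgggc
KIF23, chr15:69414229-69414348, plus strand: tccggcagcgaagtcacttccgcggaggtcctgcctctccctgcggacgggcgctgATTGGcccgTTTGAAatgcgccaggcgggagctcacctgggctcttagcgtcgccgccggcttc
KIF11, chr10:92593010-92593129, plus strand: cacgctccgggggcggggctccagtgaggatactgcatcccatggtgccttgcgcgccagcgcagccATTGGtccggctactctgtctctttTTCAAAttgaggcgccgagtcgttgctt
KIF4A, chrX:70289984-70290103, plus strand: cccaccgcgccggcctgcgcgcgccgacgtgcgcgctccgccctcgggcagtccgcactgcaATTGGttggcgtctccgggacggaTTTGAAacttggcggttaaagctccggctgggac
KIF18A, chr11:28108157-28108276, minus strand: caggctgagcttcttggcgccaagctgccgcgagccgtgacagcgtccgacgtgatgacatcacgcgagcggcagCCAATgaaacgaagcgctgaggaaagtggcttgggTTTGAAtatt
KIF2C, chr1:44739717-44739836, plus strand: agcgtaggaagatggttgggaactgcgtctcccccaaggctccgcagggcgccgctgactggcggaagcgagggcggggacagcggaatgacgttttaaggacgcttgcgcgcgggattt

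In the stretches of KIF23, KIF11, KIF4A and KIF18A a CCAAT box stood before a CHR core, in that of KIF20A 2 CCAAT boxes stood before the variant core, and in the KIF2C stretch no motif was complete. A variant core of KIF2C began 3 bases before the start and ran across it. TTTGAA was found in the windows of 9 of the 12 measured mitotic kinesins, all but KIF20A, KIF22 and KIF2C, and 66.7% of the 15 mitotic windows held it. Of the 30 other kinesin windows 3.33% held it, the 1 match being that of KIF5B, as did 15.2% of all 35116 RefSeq windows. TTTAAA was present in 26.7% of mitotic windows, in 3.33% of other kinesin windows and in 12.2% of all windows.

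CCAAT was present in 73.3% of mitotic windows, in 30% of other kinesin windows and in 34.6% of all windows. A core of either form and a CCAAT box, in any order, were present in 66.7% of mitotic windows. The shares were 3.33% of other kinesin windows and 9.27% of all windows. A CCAAT box stood before a core of either form in 9 of the 12 measured mitotic kinesins, 9 to 122 bases away with a median of 26 bases. That order was not counted outside the mitotic kinesins. The measured mitotic kinesins without it were KIF15, which held a core and no CCAAT box, KIF22 and KIF2C. The 9 measured mitotic kinesins with TTTGAA had log2 ratios of -0.61 to -0.28 with a median of -0.52, and the others were KIF20A at -0.96, KIF22 at -0.09 and KIF2C at 0.04. KIF22 held a CCAAT box in 1 of its 2 windows and neither form of the core. A match describes these letters only, and binding was not measured here.

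**Figure D3:**
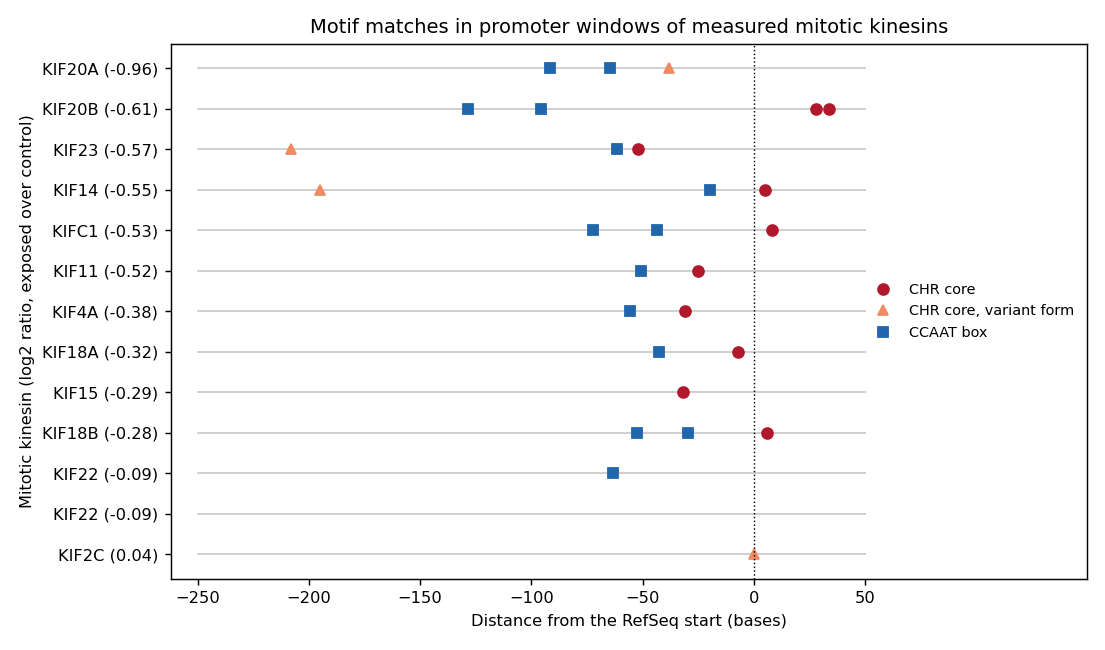
Matches to the CHR core (circles), its variant form (triangles) and the CCAAT box (squares) by distance from the RefSeq start (bases), for each promoter window of the 12 measured mitotic kinesins, ordered by log2 ratio of exposed over control. In 9 of them a CCAAT box lies before a core of either form, and KIF15, KIF22 and KIF2C lack that arrangement. It was not counted outside the mitotic kinesins.

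Kinesin-1 divided by isoform. KIF5B, its heavy chain present in most tissues (ENSG00000170759, chromosome 10, 32009010 to 32056431), had 81.1 FPKM in the exposed and 98.6 FPKM in the control library, a ratio of 0.822 (0.797 to 0.847). KIF5A, the neuronal heavy chain whose gene is mutated in hereditary spastic paraplegia (chromosome 12, 57549998 to 57586632), had 3.01 FPKM (exposed) and 1.997 FPKM (control), from 297 and 200 reads. Its ratio of 1.51 (1.255 to 1.81) was the highest of the measured kinesins, but its log2 ratio of 0.42 did not reach 1.5-fold with a pseudocount of 1. KIF5C, the other neuronal heavy chain, had 3.28 FPKM (exposed) and 3.60 FPKM (control), a ratio of 0.911 (0.803 to 1.03). KIF5B made up 92.8% of the heavy chain sum in the exposed library and 94.6% in the control library, so KIF5A and KIF5C were minor isoforms in both.

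The 4 light chains, which link kinesin-1 to its cargo, stood near a ratio of 1. KLC2 was the most abundant at 16.6 FPKM in the exposed and 16.4 FPKM in the control library, a ratio of 1.02 (0.944 to 1.09). KLC4 had a ratio of 1.08 (0.938 to 1.24), KLC1 of 0.974 (0.879 to 1.08) and KLC3 of 0.958 (0.786 to 1.17). All 4 intervals included 1, and the light chains summed to 26.7 FPKM in the exposed and 26.3 FPKM in the control library. The KLC1 value is uncertain because 29.9% of its exon length is shared with XRCC3 on the opposite strand, and KLC3 shares 14.6% with ERCC2.

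Among kinesin-3 genes, KIF1C, which carries secretory vesicles, had 13.9 FPKM in the exposed and 17.0 FPKM in the control library, a ratio of 0.819 (0.771 to 0.871). KIF1B, a carrier of mitochondria and synaptic vesicle precursors, had 8.22 FPKM (exposed) and 9.39 FPKM (control), a ratio of 0.875 (0.827 to 0.926). KIF1A, the neuronal carrier of synaptic vesicle precursors, had 2.96 FPKM (exposed) and 2.71 FPKM (control), a ratio of 1.09 (0.985 to 1.21). KIF1B and KIF1C were thus a little lower in the exposed library, and the interval of KIF1A included 1. With FPKM scaled to equal sums, the log2 ratios were -0.06 for KIF1B, -0.15 for KIF1C and 0.18 for KIF1A. KIF16B, a motor of early endosomes, had 3.38 FPKM (exposed) and 4.13 FPKM (control), a ratio of 0.818 (0.716 to 0.933). KIF13A, a motor of recycling endosomes, had a ratio of 0.9503 (0.852 to 1.06), and KIF13B one of 1.16 (1.03 to 1.31). KIF13B was one of 3 measured transport genes with an interval above 1, besides KIF5A and KIFC3.

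Kinesin-2 motors serve both intracellular transport and the building of cilia. KIF3A had 8.62 FPKM in the exposed and 10.2 FPKM in the control library, a ratio of 0.849 (0.777 to 0.927). Its partners KIF3B at 0.972 (0.900 to 1.05) and KIF3C at 1.02 (0.901 to 1.15) had intervals that included 1. KIF17, a homodimeric kinesin-2 motor, was near the limit of measurement, at 1.73 FPKM (exposed) and 1.69 FPKM (control), a ratio of 1.02 (0.789 to 1.33). KIF21A, which slows microtubule growth, had a ratio of 0.993 (0.897 to 1.10). The minus-end-directed KIFC3 had 2.74 FPKM (exposed) and 2.31 FPKM (control), a ratio of 1.19 (1.03 to 1.37), and KIFC2 a ratio of 1.01 (0.871 to 1.18). The small negative log2 ratios of KIF2A, KIF24, KIF13A, KLC3, KIF3B, KLC1 and KIF21A had the opposite sign with FPKM scaled to equal sums, and KIF3B, KLC1 and KIF21A also under the other scalings.

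Of the cilium and signalling genes, KIF7, which acts in Hedgehog signalling at the ciliary tip, had 16.1 FPKM in the exposed and 14.9 FPKM in the control library, a ratio of 1.08 (0.993 to 1.16). KIF7 shares 11.8% of its exon length with TICRR on the opposite strand. KIF24, which holds back cilium assembly at the mother centriole, had a ratio of 0.95 (0.819 to 1.10). KIF26A, an atypical kinesin known from mouse work to lack ATPase activity, had 5.73 FPKM (exposed) and 7.20 FPKM (control), a ratio of 0.795 (0.714 to 0.885). It was the 1 measured gene outside the mitotic and transport groups whose interval excluded 1.

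The 10 kinesins under a mean FPKM of 1 were KIF2B, KIF4B, KIF6, KIF9, KIF12, KIF19, KIF21B, KIF25, KIF26B and KIF27. KIF2B and KIF19 had no read in either library, and a count of 0 allows up to 3 reads as a 1-sided 95% limit. KIF25 had 5 reads in the exposed and none in the control library. KIF27 had 83 reads (exposed) and 49 reads (control), a ratio of 1.72 (1.19 to 2.498), and the neuronal KIF21B had 143 reads (exposed) and 102 reads (control), a ratio of 1.42 (1.10 to 1.85). KIF27 shares 6.77% and 8.58% of its exon length with 2 genes on the opposite strand, AL354733.1 and AL354733.2. The intervals of KIF4B, KIF6, KIF9, KIF12 and KIF26B included 1.

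Genes that work with the mitotic kinesins differed in the same direction. Of 30 listed partners 29 were measured, all 29 had intervals below 1, against 36% of all measured genes, and 10 were at least 1.5-fold lower, against 2.16%. The list median of the log2 ratio was -0.46. This list was chosen with earlier results of these data known, so its counts are a description and no independent check. ANLN, which organises the cleavage furrow, was lowest, at 29.3 FPKM in the exposed and 52.8 FPKM in the control library, a ratio of 0.554 (0.529 to 0.580). CCNB1, the mitotic cyclin, and AURKA, a kinase of the spindle poles, stood at log2 ratios of -0.72 and -0.70. CENPE, a kinetochore kinesin that the name rule does not take, had 8.18 FPKM (exposed) and 13.7 FPKM (control), a ratio of 0.597 (0.556 to 0.641). Beside the 12 measured mitotic kinesins, CENPE would rank second lowest, after KIF20A.

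S phase genes showed a smaller difference. All 26 listed were measured, and the median log2 ratio was -0.15. Intervals lay below 1 for 17 of them, against 36% of all measured genes, and above 1 for 3, against 21.5%. None reached 1.5-fold in either direction, where 2.16% of all genes were that much lower and 2.53% higher. RRM2, a subunit of ribonucleotide reductase, was lowest at -0.56, followed by FEN1 at -0.43, RRM1 at -0.43 and MCM6 at -0.38. The difference between the S phase and the mitotic lists was not tested.

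Regulators of G2 and mitotic genes went both ways. Of 16 measured, none was 1.5-fold lower, against 2.16% of all measured genes, and 1 was 1.5-fold higher, against 2.53%, and the median log2 ratio was 0.02. That gene, CDKN1A, which encodes an inhibitor of cyclin-dependent kinases, had 53.2 FPKM in the exposed and 33.4 FPKM in the control library, a ratio of 1.59 (1.498 to 1.70). The activators FOXM1 and MYBL2 stood at log2 ratios of -0.13 and -0.08, less far from 0 than most mitotic kinesins. TFDP1, a partner of E2F factors, stood at -0.48, and RBBP4, a DREAM subunit, at -0.29.

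Cargo adaptors and the opposing motor dynein had no member at 1.5-fold, where 2.16% of all measured genes were that much lower and 2.53% higher. In lists this short, a count of 0 is close to those shares. The 18 measured adaptors had a median log2 ratio of -0.01, with 5 intervals below 1, against 36% of all measured genes, and 6 above, against 21.5%. MAPK8IP2, a scaffold that binds light chains, stood at 0.43 and its relative MAPK8IP1 at -0.35. KIF1BP, which binds several kinesins, stood at -0.34 and RHOT1, the mitochondrial receptor MIRO1, at 0.33. The 24 measured dynein and dynactin genes had a median of -0.12, with 13 intervals below 1 and 5 above. They were led by the adaptor BICD2 at -0.53 and the light chain DYNLL1 at -0.49, with ACTR1B at 0.35 and DYNC1I1 at 0.34.

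**Figure D4:**
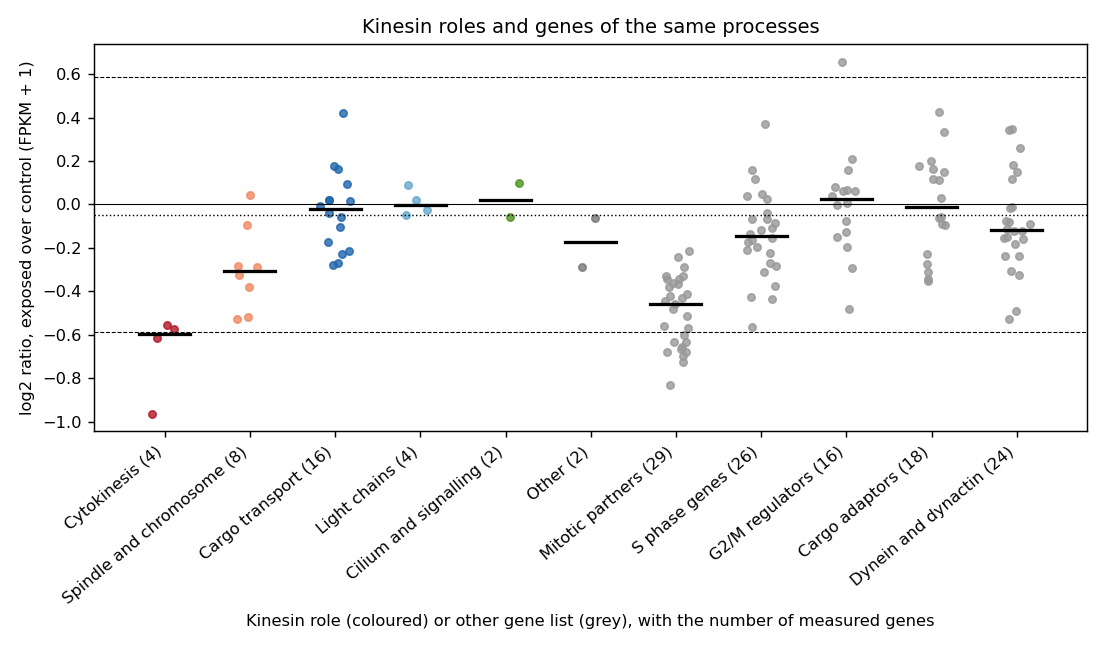
Log2 ratio of exposed over control FPKM (pseudocount 1) for each measured kinesin by role (coloured points) and each measured gene of 5 further lists (grey points), with list medians as bars. The dotted line is the median of all measured genes, -0.05, and the dashed lines mark 1.5-fold. The cytokinesis kinesins have a median of -0.59 and the mitotic partners of -0.46, while transport kinesins and light chains lie around 0.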

How the data were processed

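RNA sequencing of 1 exposed and 1 control library was used. The authors deposited 1 FPKM value per gene and library, and no aligner, counter or strand setting is named by the labels. GRCm38 and mm10, which are mouse builds, appear in the submitters' processing notes, but all 58735 identifiers were human, with the symbol, coordinates and merged exon length of GENCODE release 29 (GRCh38). FPKM multiplied by gene length gave whole multiples of 1 step per library for 100% of values above 0 (tolerance 0.001 reads). The recovered sums were 15315572 reads (exposed) and 16471438 reads (control), and the library totals behind the deposited FPKM were 1.03 and 0.971 times these sums, so the values were already scaled between libraries. No further scaling was applied. The size threshold was 1.5-fold at a pseudocount of 1, among measured protein-coding genes (mean FPKM of 1 or more). All members may be named, and of each further list the up to 4 largest absolute log2 ratios, with CENPE, FOXM1, MYBL2 and CDKN1A and genes that overlap a member. Members and lists were chosen with earlier results of these data known. A gene of 1 further list is not reported here and was left out of that list. Alternatives were pseudocounts of 0.1 and 5, filters, scalings and thresholds. The size rule and the interval were tried on simulated Poisson reads, with set changes larger than 1.5-fold. Such reads hold counting error only, so the trial says nothing about variation between cultures. Python 3.11.15, pandas 2.3.3, NumPy 2.4.6, SciPy 1.17.1 and matplotlib 3.10.9 were used.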

Additional observations from a re-analysis of the deposited data

How the results depend on the processing

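The number of kinesins at least 1.5-fold lower, 2 with the settings as reported, was 4 with a pseudocount of 0.1 and 1 with a pseudocount of 5, where 4.08% and 0.649% of all genes were that much lower, against 2.16% as reported. It was also 1 with FPKM scaled to equal sums (1.06% of all genes), with the trimmed mean log ratio at 0 (1.60%) and with equal 75th percentiles (1.56%). At 2-fold it was 0 (0.131%). With the threshold at 20% lower it was 8 (13.5%), and 1 kinesin was at least 25% higher (8.98%). The median log2 ratio of the mitotic kinesins was -0.33 with FPKM scaled to equal sums, which moved the median of all genes by 0.11. Relative to the median of all genes, the mitotic median lay between -0.41 and -0.32 under all settings tried. The scalings could hardly change that distance, because each moves all genes together. The transport and light chain median was -0.17 with a mean FPKM of at least 5, and 0.09, 0.03 and 0.03 with equal sums, the trimmed mean and the 75th percentiles. Of 180 values of single kinesins under the alternative pseudocounts and scalings, 160 moved by less than their counting interval and 20 by more. Values of KIF20A, KIF20B, KIF23, KIF14, KIF11 and KIF5B were among the 20. None of the kinesins past 1.5-fold changed sign, but shifts of this size could hardly have reversed them. A scaling reversed the sign of 8 kinesins with small log2 ratios. No paired analysis was possible because there was 1 library per group. Without replicates, no difference has a check on variation between cultures, that of KIF20A included. For KIFC3, KIF13B and KIF16B the counting interval also came close to 1.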
